A study of Mus musculus with 8 samples.

Results

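The BCL2 family survival and death genes were examined in tumor-infiltrating CD4+ Tconv cells sorted by CCR8. The family was taken as 10 genes that were picked by symbol: the pro-survival genes Bcl2, Bcl2l1 and Mcl1, the effector genes Bax and Bak1, and the BH3-only genes Bcl2l11, Bid, Bad, Bbc3 and Pmaip1. All 10 of the 10 were found among the 11233 genes of the table of normalized counts. The cells came from Foxp3 EGFP-DTR mice, in which EGFP and the diphtheria toxin receptor are made from the Foxp3 locus, so that diphtheria toxin (DTx) kills Foxp3-expressing Treg cells. The mice carried subcutaneous B16-F10 tumors, a transplantable melanoma line of the same mouse background. All 8 libraries came from DTx-treated mice, so both groups were from Treg-ablated tumors, and tumors with intact Treg cells were not analysed here. EGFP-negative CD4+ T cells, that is Tconv cells without the Foxp3 reporter, were sorted into CCR8+ cells (n = 4 libraries) and CCR8- cells (n = 4 libraries), and the comparison asks how the cells that carry this chemokine receptor differ from those that do not. The labels give neither age nor sex. The study's methods give an age range in weeks for its mice and state that both sexes were spread equally over groups, without values for each library. While the study calls the libraries biological replicates, no source says whether each came from a separate mouse, so p-values measure only the spread between these libraries.

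The BCL2 family governs the mitochondrial route to apoptosis. BAX and BAK open the outer mitochondrial membrane and release cytochrome c, pro-survival proteins such as BCL2, BCL-XL (encoded by Bcl2l1) and MCL1 hold them in check, and BH3-only proteins carry stress signals that neutralize the pro-survival proteins or activate BAX and BAK directly. In T cells, BCL2 is maintained by interleukin-7, BCL-XL is raised by CD28 costimulation, and BIM (encoded by Bcl2l11) is needed to remove T cells after an immune response.

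The 8 libraries held between 12067780 and 17802628 reads in genes, and the value of 3 reads, below which a value was not told apart from 0, was at most 3.42 normalized counts. All members were above that floor in every library, and the lowest count of a member was 37 reads, for Bak1. CCR8- replicate 1 stood apart. It had 8569 detected genes, and it lacked any read in 242 genes whose level was 100 normalized counts or more in each of the other 7 libraries. CCR8+ replicates 1 and 3 had 44 and 36 such genes and the other 5 libraries had 0. The 8 markers listed for CD4 T cells were detected, and all but Cd4 are genes of T cells in general. Their summed level was between 82540 and 109900 normalized counts in CCR8- and between 82690 and 118600 in CCR8+ cells. Cd4 itself was between 6364.5 and 9822.6 in CCR8- and between 7610.6 and 9191.9 in CCR8+ cells. Macrophage markers (10 of 10 detected) summed to between 28.6 and 60570 normalized counts in CCR8- cells (median 2514) and between 3008 and 27640 in CCR8+ cells (median 18290). The 5 melanoma markers found in the table summed to between 105 and 17210 and between 232 and 21700. The B cell markers summed to between 29.4 and 365 in CCR8- and between 0 and 447 in CCR8+ cells, with Cd79a and Cd79b detected and Ms4a1 at 0 in all libraries. CD8 T cell markers summed to between 980 and 3805 in CCR8- (median 1447) and between 478 and 1227 in CCR8+ cells (median 1140). NK cell markers summed to between 0 and 520 (median 244) and between 0 and 76.6 (median 12.4). In CCR8+ cells Ncr1 and Klrb1c were at 0 in all libraries, so that sum was Eomes alone. The study also names Eomes for some CD4+ Tconv cells, so the sum is not specific to NK cells. Dendritic cell markers summed to between 206 and 721 and between 314 and 578. In such bulk libraries, fewer cells of a type and less RNA per cell cannot be told apart. The level of Ccr8, the gene of the sorted receptor, was 2039, 1293, 6214 and 4637 normalized counts in CCR8- replicates 1 to 4 and 7975, 6970.2, 42508 and 22965 in CCR8+ replicates 1 to 4, so that the groups did not overlap but CCR8- cells were not free of its RNA (log2 fold change 2.37, SE 0.62, adjusted p above the threshold of 0.05 by limma).

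Among the members, Bcl2l1 was the only gene whose CCR8+ values all lay outside the CCR8- values. Its mean level was 2.61 times as high in CCR8+ as in CCR8- cells. The other pro-survival genes, Bcl2 and Mcl1, had means within their spread of each other, and of the pro-death genes Bid was on average lower and Pmaip1 on average higher in CCR8+ cells, with overlapping values. Differences are given as log2 fold changes of CCR8+ over CCR8- cells on the log2(normalized count + 1) scale and were tested with limma. Genes averaging 10 or more normalized counts entered the test, 11032 in all, and p-values were adjusted over all of them by the Benjamini-Hochberg method. At an adjusted p under 0.05, 0 of 10 members and 0 of 11032 genes (0%) were called, and the lowest adjusted p over all genes was 0.788. At an unadjusted p under 0.05 there were 2 of 10 members, Bcl2l1 and Bid, beside 562 genes (5.09%). The main test thus called no gene of the table, and Ccr8 was not called by it either. Calls depended on the test, since DESeq2 with the replicate number as a block called Ccr8 (adjusted p = 2.14e-28). The study, whose methods name DESeq2, reports genes that differ between intratumoral CCR8+ and CCR8- Tconv cells at q < 0.05. On reads recovered from the normalized counts, edgeR called 0 members, and DESeq2 called 0 members beside 26 of the 2259 genes to which it gave an adjusted p (1.15%). Only Bcl2l1, Mcl1, Bax and Pmaip1 were among these, and DESeq2 gave no adjusted p to the other members.

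Members with a log2 fold change above 0 numbered 3 of 10 (Bcl2l1, Bad and Pmaip1) beside 52.4% of all tested genes, and those below 0 numbered 7 of 10 beside 47.6%. Bcl2l1 was 1 of 10 members higher without overlap, beside 2.37% of all tested genes, and 0 of 10 members were lower without overlap, beside 2.03%. The median log2 fold change was −0.16 over the members and 0.04 over all tested genes.

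**Figure D1:**
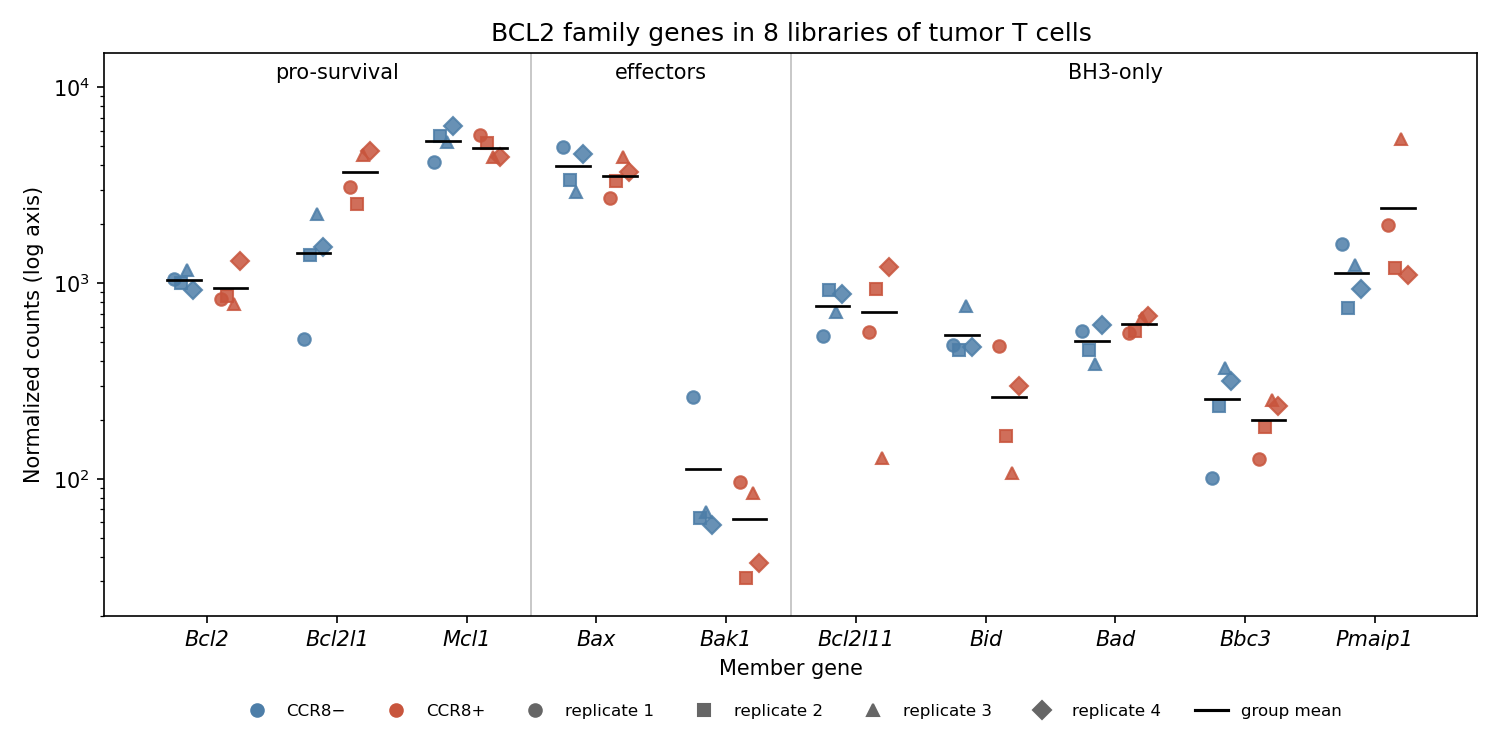
Normalized counts (y axis, log scale) of the 10 member genes (x axis) in the 8 libraries, with CCR8- libraries in blue, CCR8+ libraries in red, replicate numbers as symbols and group means as bars. The 4 CCR8+ values of Bcl2l1, between 2538 and 4736, all lie above its CCR8- values, and the values of the other 9 genes overlap between the groups.

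Bcl2l1 encodes BCL-XL, which holds BAX and BAK inactive at the outer mitochondrial membrane. Its locus is at chr2:152780668-152831728 on the minus strand of GRCm38, and no other annotated exon overlaps its exons. Its level was 517, 1397, 2261 and 1537 normalized counts in CCR8- replicates 1 to 4 and 3086, 2538, 4520 and 4736 in CCR8+ replicates 1 to 4. The lowest CCR8+ library thus stood just above the highest CCR8- library, and the lowest value of all was in CCR8- replicate 1. The group means were 1428 ± 716 and 3720 ± 1076 normalized counts (SD, n = 4 each). The log2 fold change was 1.51 (SE 0.41, 95% interval 0.62 to 2.41), which is 2.86-fold with an interval of 1.53 to 5.32. It had an unadjusted p of 0.00338, the 39th smallest p of the 11032 genes, and an adjusted p above the threshold of 0.05 by limma, and 11.7% of all tested genes had a larger log2 fold change. The exact two-sided permutation test over the 70 assignments of labels gave p = 0.0286, the smallest it can give. Any gene with separate groups gets this value, so it restates the separation and is not a further result. Without CCR8- replicate 1 the log2 fold change was 1.09 (SE 0.28, adjusted p = 0.851 by limma), and without CCR8- replicate 1 and CCR8+ replicate 3 it was 0.98 (SE 0.29). The groups also ceased to be separate when each library was scaled to the same total or quantile normalized, since CCR8- replicate 3, the library with the smallest total, then passed CCR8+ replicate 2.

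The replicate numbers 1 to 4 occur in both groups. The cells were isolated on a single day, so a number marks no day, and the sources do not state that it marks a mouse. Within the 4 same-numbered pairs, Bcl2l1 was higher in the CCR8+ library by 2.57, 0.86, 1.0 and 1.62 on the log2 scale. This held in 4 of 4 pairs for Bcl2l1 and Pmaip1, that is 2 of 10 members beside 8.44% of all tested genes, and Bid was lower in 4 of 4 pairs, that is 1 of 10 members beside 8.1%. DESeq2 with the replicate number as a block called Bcl2l1 (log2 fold change 1.5, SE 0.35, adjusted p = 0.00527) and no other member, beside 124 genes in all (1.12%). DESeq2 without the block gave it an adjusted p of 0.0604, limma with the block 0.66 and edgeR 0.999, so the call of Bcl2l1 was made by DESeq2 with the block alone among the alternatives, whose adjusted p ranged from 0.00527 to 0.999.

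The macrophage signal moved with the groups in part, since its median was higher in CCR8+ cells, and macrophages also express Bcl2l1. The summed macrophage level was highest in CCR8- replicate 4, at 60570 normalized counts, where Bcl2l1 was at 1537. It was lowest among CCR8+ libraries in replicate 3, at 3008, where Bcl2l1 was at 4520. CCR8- replicate 1 held both the lowest macrophage level, at 28.6, and the lowest Bcl2l1 level, at 517. The part of macrophage RNA in the difference of Bcl2l1 was not tested.

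The sequence before the start of Bcl2l1 is shown because Bcl2l1 is the member whose groups were separate. The RefSeq table (GRCm38.p6) holds 3 start sites of Bcl2l1, and the 250 bases before the outermost start (chr2:152831729-152831978) and before the next one (chr2:152830718-152830967) are printed 5′ to 3′ on the minus strand. Capitals mark a match to the NF-κB consensus.
Bcl2l1, outermost start: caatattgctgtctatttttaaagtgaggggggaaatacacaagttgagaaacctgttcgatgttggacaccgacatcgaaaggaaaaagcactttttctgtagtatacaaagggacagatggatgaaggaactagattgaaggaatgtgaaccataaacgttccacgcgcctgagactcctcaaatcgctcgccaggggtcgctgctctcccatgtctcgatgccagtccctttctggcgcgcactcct
Bcl2l1, next start: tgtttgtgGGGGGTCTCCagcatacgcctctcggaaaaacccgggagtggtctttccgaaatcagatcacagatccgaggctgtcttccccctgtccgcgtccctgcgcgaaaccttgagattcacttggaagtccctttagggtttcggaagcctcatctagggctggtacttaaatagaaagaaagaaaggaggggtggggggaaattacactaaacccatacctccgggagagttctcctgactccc
The match begins 242 bases before the start, and the outermost window, at 47.6% GC, held none. Searched on both strands, the NF-κB consensus occurred in 7.25% of 32851 windows of the same length and in 2 of the 15 windows found for 9 members, 1 each of Bcl2l1 and Bbc3. The STAT motif TTCNNNGAA (7.02% of windows) and the AP-1 motif TGANTCA (6.75%) occurred in 0 of the 15 member windows. The ETS motif CCGGAAG (6.91%) occurred in 2 of the 15, 1 each of Bcl2l11 and Mcl1. These are matches of letters and say nothing of binding.

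Bcl2, the founding pro-survival gene of the family, was at a similar level in most libraries. It had 1054, 1000.3, 1173 and 926 normalized counts in CCR8- replicates 1 to 4 and 828, 862, 780.1 and 1297 in CCR8+ replicates 1 to 4. CCR8+ replicates 1 to 3 were below every CCR8- library, and CCR8+ replicate 4 was above them all. Over the 8 libraries, the log2 fold change was −0.17 (SE 0.25, 95% interval −0.72 to 0.39, adjusted p = 0.899 by limma). The interval leaves room for a moderate difference either way, and the missed threshold does not show equal levels. The same-numbered differences were −0.35, −0.22, −0.59 and 0.49.

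Mcl1 encodes a short-lived pro-survival protein that T cells need throughout life, and it varied least of all members, by 1.51 times between its lowest and highest library. Its level was 4179, 5671, 5238 and 6321 normalized counts in CCR8- replicates 1 to 4 and 5703, 5192, 4403 and 4429 in CCR8+ replicates 1 to 4. The groups overlapped through replicate number 1, which held the lowest CCR8- and the highest CCR8+ value. Without that number, the 3 remaining CCR8+ values all lay below the 3 CCR8- values. With all libraries, the log2 fold change was −0.11 (SE 0.20, 95% interval −0.55 to 0.33, adjusted p = 0.918 by limma).

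**Figure D2:**
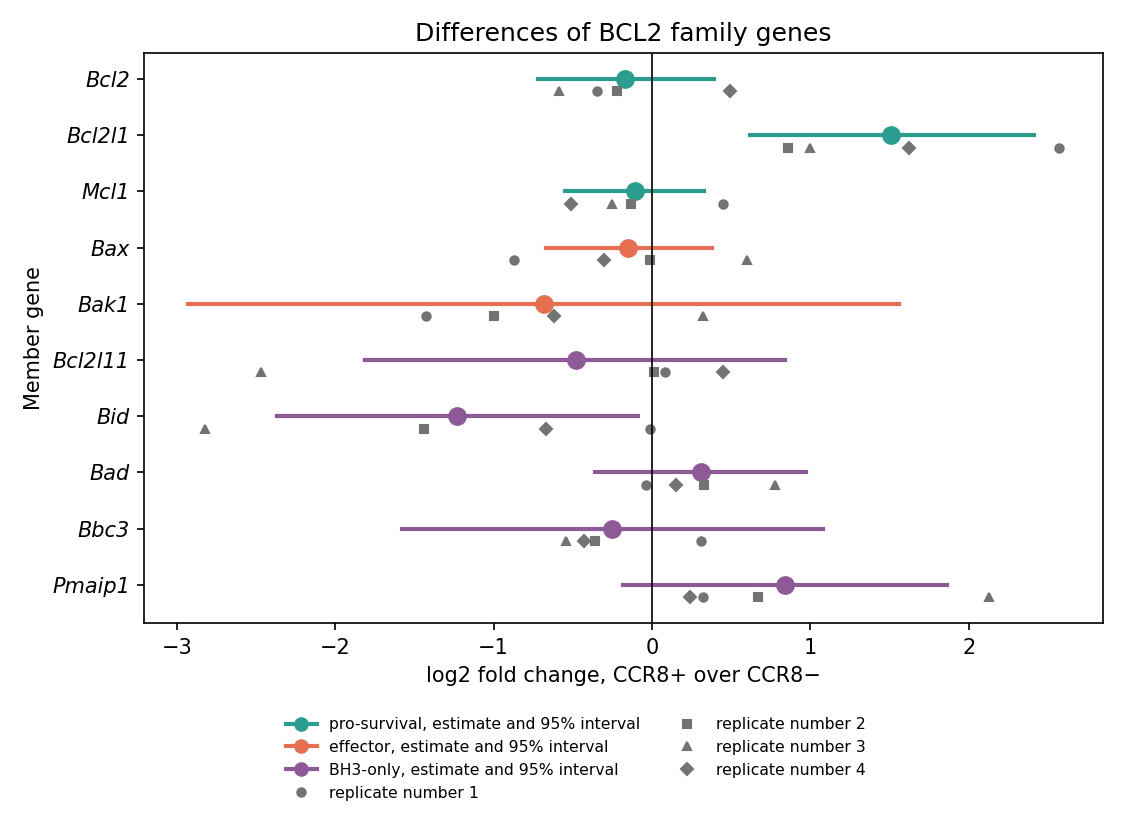
Log2 fold change of CCR8+ over CCR8- cells (x axis) for the 10 member genes (y axis), with the limma estimate as a large point, its 95% interval as a line and the differences within the 4 same-numbered pairs as small gray symbols. The intervals of Bcl2l1 (0.62 to 2.41) and Bid (−2.37 to −0.09) lie on one side of 0, and both genes had adjusted p-values above 0.8.

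Bax and Bak1 encode the effectors, either of which can open the mitochondrial membrane. Bax was abundant in both populations, with 4985, 3349, 2914 and 4553 normalized counts in CCR8- replicates 1 to 4 and 2719, 3320.1, 4429.5 and 3698 in CCR8+ replicates 1 to 4. The values interleaved, and the same-numbered differences had both signs (−0.87, −0.01, 0.60 and −0.30). On average, the log2 fold change was −0.15 (SE 0.24, 95% interval −0.67 to 0.38, adjusted p = 0.907 by limma), and it was 0.10 without replicate 1 in both groups. An exon of Gm45808 on the same strand shares 12.2% of the exonic bases of Bax.

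Bak1 was the least abundant member, at 261, 63.2, 67.5 and 57.9 normalized counts in CCR8- replicates 1 to 4 and 96.2, 31.1, 84.4 and 37.4 in CCR8+ replicates 1 to 4. The high CCR8- mean rested on replicate 1, the library with the fewest detected genes, and the other 3 CCR8- libraries lay within the CCR8+ range. Its log2 fold change was −0.68 (SE 1.02, 95% interval −2.93 to 1.56) and −0.17 without CCR8- replicate 1. It had 243 reads in all CCR8+ and 479 in all CCR8- libraries. Of its exonic bases, 25.5% overlap Ggnbp1 on the other strand, and reads of such partners cannot be told apart here, since the use of strand in counting is not given in the sources used here.

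Among the BH3-only genes, Bid encodes the protein that caspase-8 cleaves to link death receptors to the mitochondria. Its level was 482, 454, 761 and 471 normalized counts in CCR8- replicates 1 to 4 and 479.9, 166, 107 and 297 in CCR8+ replicates 1 to 4. CCR8+ replicate 1 stood within the CCR8- range, and CCR8+ replicates 2 to 4 stood below every CCR8- library. The group means were 542 ± 146 and 263 ± 165 normalized counts (SD, n = 4 each), a ratio of 2.06 in favor of CCR8- cells. The log2 fold change was −1.23 (SE 0.52, 95% interval −2.37 to −0.09, unadjusted p = 0.0363, adjusted p = 0.838 by limma), and the exact two-sided permutation test gave p = 0.0857. In the same-numbered pairs the differences were −0.01, −1.44, −2.82 and −0.67, so pair 1 held almost none. The value over all libraries became −0.88 without CCR8+ replicate 3 and −0.70 without replicate 3 in both groups, and 9.99% of all tested genes had a lower log2 fold change. Bid shares 17.7% of its exonic bases with Bcl2l13 on the other strand, a gene with higher means in CCR8+ cells (353 ± 278 in CCR8- and 595 ± 225 in CCR8+ cells), and the part of such reads was not tested.

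Pmaip1 encodes NOXA, a BH3-only protein that binds MCL1. Its level was 1592, 750.4, 1241 and 932 normalized counts in CCR8- replicates 1 to 4 and 1983, 1197, 5429 and 1100.3 in CCR8+ replicates 1 to 4. The CCR8+ mean of 2427 ± 2039 rested on replicate 3, and the other 3 CCR8+ values lay within the CCR8- range or, in replicate 1, above it. It was nonetheless higher in the CCR8+ library of each same-numbered pair, by 0.32, 0.67, 2.13 and 0.24 on the log2 scale. The log2 fold change was 0.84 (SE 0.47, 95% interval −0.18 to 1.86, adjusted p = 0.838 by limma) and 0.34 without CCR8+ replicate 3.

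Bcl2l11 encodes BIM, which binds all pro-survival members of the family. Its level was 536, 925, 714 and 885 normalized counts in CCR8- replicates 1 to 4 and 565, 935, 128 and 1207 in CCR8+ replicates 1 to 4. CCR8+ replicate 3 was far below the rest and CCR8+ replicate 4 was the highest of all, so that the CCR8+ values spanned the CCR8- range on both sides. The log2 fold change was −0.48 (SE 0.60, 95% interval −1.81 to 0.84, adjusted p = 0.878 by limma), and its direction turned to 0.20 without CCR8+ replicate 3. Without CCR8- replicate 1 and CCR8+ replicate 3 it was 0.04.

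Bad, whose protein is held inactive by phosphorylation under growth factor signaling, was among the steadiest members. It had 568, 454, 389 and 613 normalized counts in CCR8- replicates 1 to 4 and 554, 569, 667 and 683 in CCR8+ replicates 1 to 4. The CCR8+ values sat in the upper part of the CCR8- range and above it (log2 fold change 0.31, SE 0.30, 95% interval −0.36 to 0.97, adjusted p = 0.849 by limma). Exons of Gpr137 on the other strand overlap 20.5% of its exonic bases. Bbc3 encodes PUMA, a target of p53. It had 102, 237, 369 and 318 normalized counts in CCR8- replicates 1 to 4 and 127, 185, 254 and 235 in CCR8+ replicates 1 to 4. Its values overlapped, with the lowest of all in CCR8- replicate 1 (log2 fold change −0.25, SE 0.61, adjusted p = 0.946 by limma), and without that library the log2 fold change was −0.65.

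The spread within a group differed widely between members. On the log2 scale, the SD was between 0.14 and 0.36 in both groups for Bcl2, Mcl1, Bax and Bad. It was 0.81 or more in at least 1 group for Bcl2l1, Bak1, Bcl2l11, Bid, Bbc3 and Pmaip1. The ratio of the highest to the lowest library was at most 1.83 in the former genes and between 3.64 and 9.45 in the latter. CCR8+ replicate 3 held the lowest CCR8+ value of Bcl2, Mcl1, Bcl2l11 and Bid and the highest of Bax, Bbc3 and Pmaip1. It held neither for Bcl2l1, Bak1 and Bad, and it also had the highest level of Ccr8.

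Levels of different genes were compared per kilobase of exon (GENCODE M21 on GRCm38, a later build than the one the reads were aligned to). In normalized counts per kilobase over the 8 libraries, Bax was highest at 2380 ± 522, followed by Mcl1 at 1500 ± 221, Pmaip1 at 651 ± 558, Bcl2l1 at 561 ± 325 and Bad at 220 ± 39.1 (SD, n = 8). Bid at 113 ± 58.5, Bcl2 at 108 ± 19.5, Bbc3 at 107 ± 42.5 and Bcl2l11 at 91.8 ± 41.0 followed, and Bak1 was lowest at 36.3 ± 30.5. The ranges of all neighbors in this order overlapped. Within a library, Bax was above Mcl1 in 8 of 8, Mcl1 was above Bcl2l1 and above Bcl2 in 8 of 8, and Bcl2l1 was above Bcl2 in 7 of 8, the exception being CCR8- replicate 1. The order of Bid, Bcl2, Bbc3 and Bcl2l11 changed from library to library. Of the 3 pro-survival members, Mcl1 was thus the highest per length in both populations, and Bcl2l1 came after it at 311 ± 156 in CCR8- and 811 ± 235 in CCR8+ cells (SD, n = 4 each).

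Measures taken within a library do not depend on how libraries are scaled to each other. Bcl2l1 made up 7.77, 14.7, 22.9 and 14.7% of the per-kilobase level of the 3 pro-survival genes in CCR8- replicates 1 to 4 and 27.7, 25.5, 41.8 and 41.8% in CCR8+ replicates 1 to 4. The share of Mcl1 was 84.3, 80.0, 71.2 and 80.9% in CCR8- and 68.6, 70.1, 54.6 and 52.5% in CCR8+ replicates 1 to 4. The groups did not overlap in either share. The shares of a library sum to a fixed total, so a higher share of Bcl2l1 lowers that of Mcl1 and the pair is 1 observation. This observation rests on the Bcl2l1 values given above and is not a separate result. The 3 pro-survival genes together held 36.4 ± 7.82% of the per-kilobase level of the 10 members in CCR8- and 40.0 ± 6.17% in CCR8+ cells, the effectors 45.8 ± 8.37% and 37.8 ± 3.74%, and the BH3-only genes 17.8 ± 2.52% and 22.2 ± 6.74% (SD, n = 4 each). These differences between role groups were within the spread of the libraries.

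The ratio of Bcl2l1 to Bcl2 separated the groups too, but it rests on the same Bcl2l1 values and is not a separate result. Its log2 value was −1.03, 0.48, 0.95 and 0.73 in CCR8- replicates 1 to 4 and 1.90, 1.56, 2.53 and 1.87 in CCR8+ replicates 1 to 4. The difference of the means was 1.68, and it was 1.24 without CCR8- replicate 1 and 1.05 without CCR8- replicate 1 and CCR8+ replicate 3. The log2 ratio of Bcl2l1 to Bcl2l11, the pro-survival gene over its BH3-only antagonist, was −0.05, 0.59, 1.66 and 0.80 in CCR8- and 2.45, 1.44, 5.13 and 1.97 in CCR8+ replicates 1 to 4. It was higher in the CCR8+ library of 4 of 4 pairs, but the groups overlapped, and CCR8+ replicate 3, the library with the lowest Bcl2l11 value, was far above the rest. The log2 ratio of Mcl1 to Pmaip1 was 2.29 ± 0.70 in CCR8- and 1.34 ± 1.12 in CCR8+ cells, and that of Bcl2 to Bcl2l11 was 0.47 ± 0.45 and 0.78 ± 1.24 (SD, n = 4 each). Both overlapped between the groups, and the difference of the latter, 0.32, turned to −0.29 without CCR8+ replicate 3. These ratios were described and not tested, and how often ratios of other genes separate the groups was not examined.

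**Figure D3:**
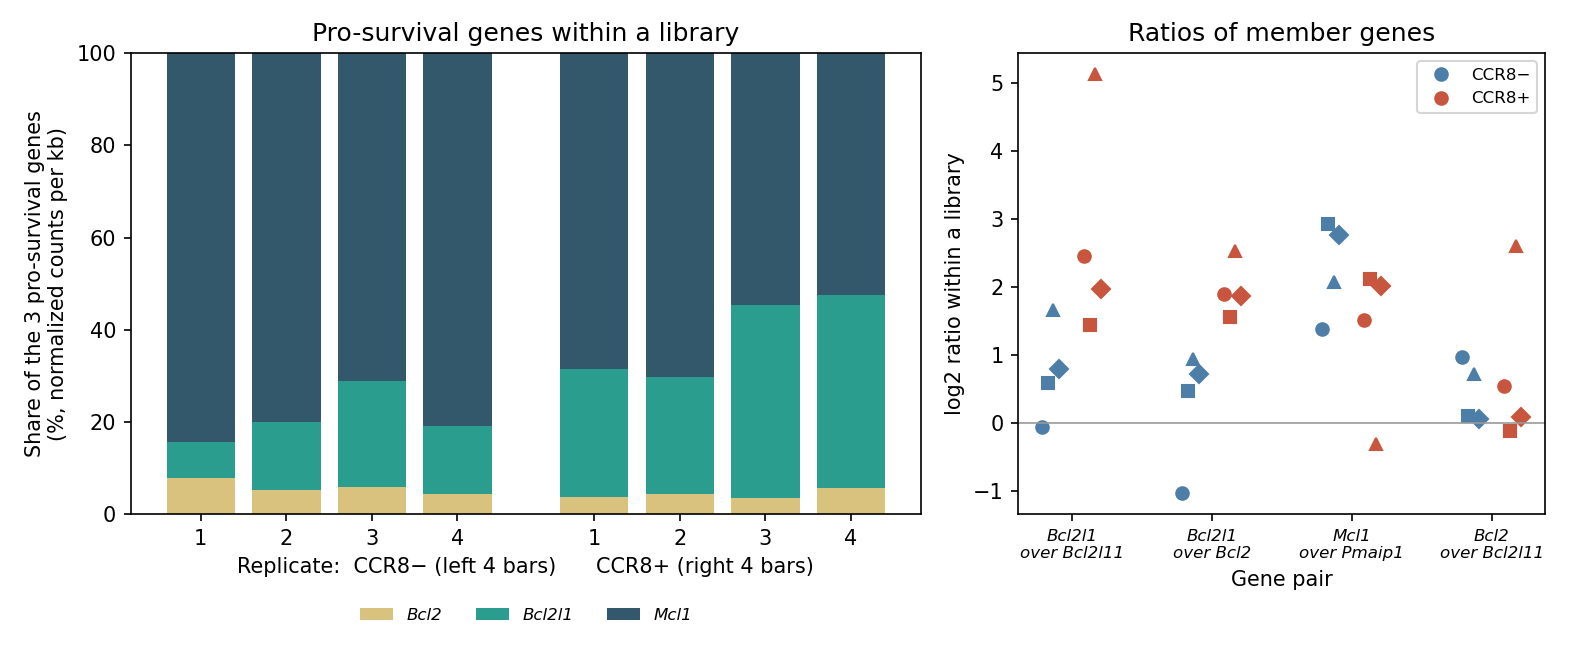
Left, share of Bcl2, Bcl2l1 and Mcl1 (%, y axis) in the per-kilobase level of these 3 genes in each of the 8 libraries (x axis, replicate numbers within each group). Right, log2 ratios of 4 gene pairs (x axis) in each library, with CCR8- in blue, CCR8+ in red and symbols for replicate numbers 1 (circle), 2 (square), 3 (triangle) and 4 (diamond). The Bcl2l1 share is at most 22.9% in CCR8- and at least 25.5% in CCR8+ libraries, and the Bcl2l1 to Bcl2 ratio is at most 0.95 and at least 1.56.

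As a group, the pro-survival members differed little from the pro-death members. The median log2 fold change was −0.11 over the 3 pro-survival genes and −0.25 over the 7 pro-death genes, a difference of 0.14, which was −0.06 without CCR8+ replicate 1. In the same-numbered pairs this difference was 0.45, −0.11, −0.57 and 0.79, so it had both signs. The effectors had a median of −0.41 and the BH3-only genes one of −0.25, and within each role of more than 2 genes some members were higher and some lower. Bcl2l1 therefore stood out among the 3 pro-survival members, and a direction shared by the members was not seen in these values. Pro-survival genes outside the members did not enter this contrast.

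The wider pathway was read from 4 lists of genes, in which limma called 0 genes in either direction. Of 16 other BCL2 family genes, 11 were in the table and tested, of which 7 were higher and 4 lower in CCR8+ cells, with a median log2 fold change of 0.37 beside 0.04 over all tested genes. None of the 11 had separate groups. Both ends of their range (−2.95 and 2.56) were genes with 0 reads in at least 1 library. Bnip3, a mitochondrial BH3-like protein of hypoxia and mitophagy, had the lowest unadjusted p of this list. It had 194, 1094, 450 and 1579 normalized counts in CCR8- replicates 1 to 4 and 1319, 1568, 2330 and 1321 in CCR8+ replicates 1 to 4. CCR8- replicate 4 lay among the CCR8+ values, and the other 3 lay below them (log2 fold change 1.35, SE 0.56, unadjusted p = 0.0342, adjusted p = 0.838 by limma). Bcl2l13 was at 93.6, 356, 737 and 225 in CCR8- and 552, 432, 925 and 471 in CCR8+ replicates 1 to 4 (log2 fold change 1.06, SE 0.59). The abundant pro-survival A1 genes Bcl2a1b and Bcl2a1d were named for their level. Bcl2a1b averaged 7466 ± 3922 in CCR8- and 9551 ± 4782 in CCR8+ cells, and Bcl2a1d 5394 ± 2391 and 7846 ± 2998. Their log2 fold changes were 0.37 (SE 0.39) and 0.57 (SE 0.33), with adjusted p = 0.852 and 0.838 by limma. All 4 pairs rose from CCR8- to CCR8+ for both, and also for the less abundant Bcl2a1a (0.90, SE 0.96). Such a rise was seen in 8.44% of all tested genes. Bcl2a1b and Bcl2a1d are near-identical copies, so their split between genes is uncertain.

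Downstream of the mitochondria, all 16 genes of the apoptosome, the caspases and their inhibitors were tested, of which 6 were higher and 10 lower (median −0.06). Diablo encodes SMAC, which is released from mitochondria and relieves the block of caspases by IAP proteins, and it was the only gene of this list with separate groups. It had 984, 1099, 1104 and 1161 normalized counts in CCR8- replicates 1 to 4 and 1242, 1238, 1561 and 1308 in CCR8+ replicates 1 to 4. The values were close within each group and the difference was small (log2 fold change 0.29, SE 0.21, adjusted p = 0.838 by limma). In the death receptor pathway, 11 of 11 genes were tested, with 5 higher and 6 lower (median −0.09) and none separate. Fasl, the ligand of the death receptor Fas, was at 7426, 4295, 2488 and 4502 in CCR8- and 3556, 3387, 1178 and 3162 in CCR8+ replicates 1 to 4. Each same-numbered pair had the lower value in its CCR8+ library, and the groups overlapped (log2 fold change −0.75, SE 0.40, adjusted p = 0.838 by limma). The adaptor gene Tradd showed the same pattern, with means of 894 ± 177 and 674 ± 151 normalized counts (SD, n = 4 each).

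Regulators of the family included the interleukin-7 and interleukin-2 receptor chains, STAT5, the FOXO factors and ubiquitin enzymes that act on MCL1. Of 14 tested genes, 7 were higher and 7 lower, with a median of 0.02. Huwe1 encodes a ubiquitin ligase of MCL1, and it was the only one with separate groups. It had 743, 489, 845 and 553 normalized counts in CCR8- replicates 1 to 4 and 418, 314, 429 and 414 in CCR8+ replicates 1 to 4. The means were 657 ± 165 in CCR8- and 394 ± 53.5 in CCR8+ cells (SD, n = 4 each). The difference did not pass the adjusted test (log2 fold change −0.71, SE 0.33, adjusted p = 0.838 by limma). Genes with separate groups thus numbered 1 of 10 members, 1 of 16 apoptosome and caspase genes, 1 of 14 regulators and 0 in the other lists, beside 2.37% (higher) and 2.03% (lower) of all tested genes, and nothing is read from them about the lists.

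**Figure D4:**
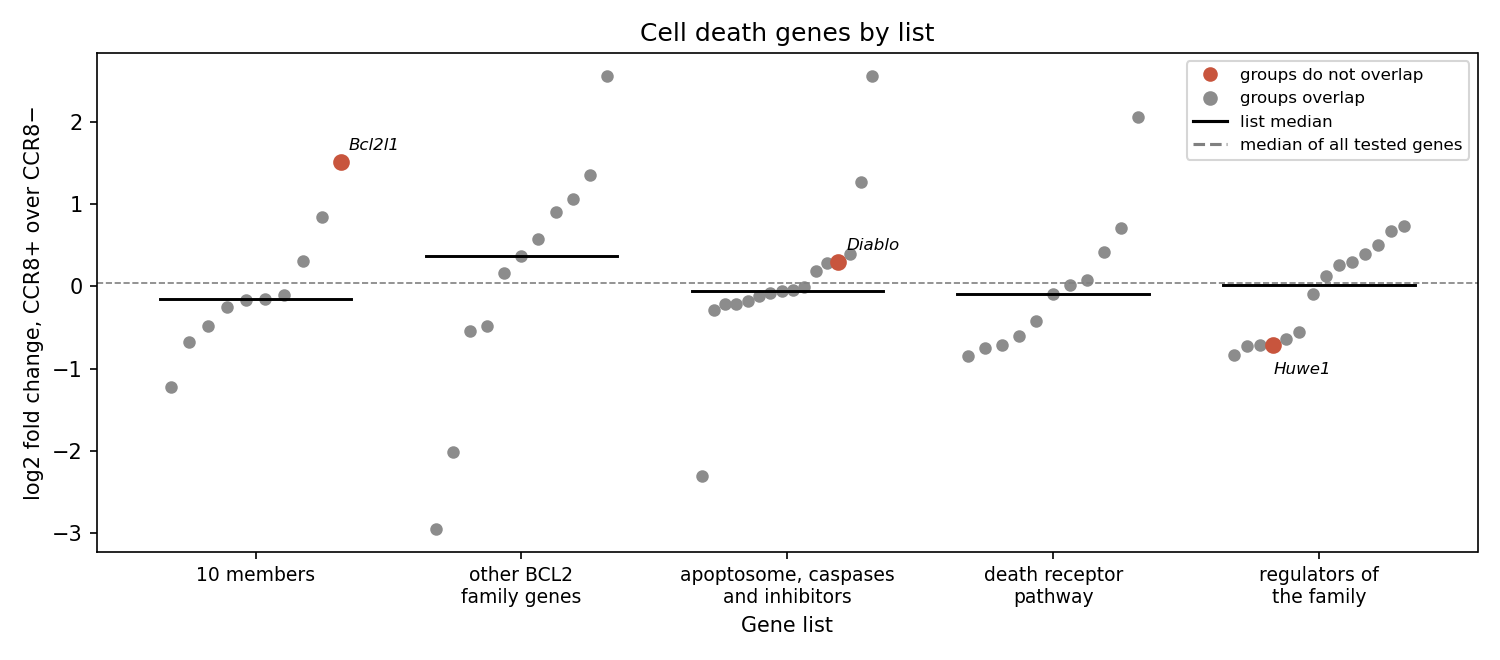
Log2 fold change of CCR8+ over CCR8- cells (y axis) for the tested genes of the 10 members and of 4 lists of cell death genes (x axis), ordered within each list. Bars are list medians and the dashed line is the median of all tested genes (0.04). Red points are genes whose 4 CCR8+ values all lie on one side of the 4 CCR8- values: Bcl2l1, Diablo and Huwe1.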

How the data were processed

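RNA was extracted from sorted CD4+ cells and made into SMARTer low-input libraries and sequenced, from EGFP-negative Tconv cells sorted as CCR8+ (4 libraries) or CCR8- (4 libraries). According to the methods, the authors used Cutadapt for trimming and hisat2 for alignment to NCBIM37, discarded reads that mapped more than once and scaled libraries by size, intergenic reads included. The submitters' processing notes also name FastQC, HTSeq, DESeq2 and mm9. Tool versions and the use of strand in counting are not given in the sources used here. What was deposited is a signal for each gene, namely its read count over a factor of the library. The unit is called FPM there, although libraries summed to between 11469410 and 14394101. All values (100% in each library, tolerance 0.001 reads) were whole multiples of 1 read, so whole reads were recovered. The table has 11233 genes, 20 of them without a read in any library, and 1 repeated name, whose rows were kept apart. The number of unused per-sample columns was 0.

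Deposited values were compared as log2(normalized count + 1) with limma 3.58.1 in R 4.3.3 with an intensity trend, for the 11032 genes averaging 10 or more, and adjusted by the Benjamini-Hochberg method. A count test was not planned as the main test because the values are named as normalized. Since whole reads could be recovered, count tests were possible and were run as alternatives. The study itself used the Wald test of DESeq2. Single genes had exact two-sided permutation tests over 70 label assignments. Groups were taken from the sample titles. Alternatives were other scalings (each library to the mean total of the libraries, TMM factors, quantile normalization), a pseudocount of 0.1 or 10, and dropping the filter or raising it to 100. No trend, robust variance and the replicate block were further alternatives. The quasi-likelihood test of edgeR 4.0.16 and the Wald test of DESeq2 1.42.0 were run on recovered reads, each also with the block. Each library or replicate number was also left out. Leaving out CCR8- replicate 1 and CCR8+ replicate 3 together was added after the values were seen. Scripts were tested on simulated data.

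All members are described. From each pathway list the text names the genes with separate groups, and otherwise the 2 with the lowest unadjusted p. The members and lists were chosen with earlier results of these data known. Exon lengths and overlaps are from GENCODE M21 (GRCm38) and promoter windows from RefSeq (GRCm38.p6, 9 of 10 members found). Counting limits cover counting error only, since libraries carry no molecular identifiers.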

Additional observations from a re-analysis of the deposited data

Results flagged for a closer look

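In 30 groups of 4 libraries examined, 2 held a library far from the others by Dixon's criterion, which chance gives in about 1 in 20 groups. The criterion is the gap to the nearest library over the range of the group, here taken on log2(normalized count + 1). Bak1 was at 261 normalized counts in CCR8- replicate 1, and the other CCR8- libraries were between 57.9 and 67.5 (gap over range 0.899). Bid was at 760.5 normalized counts in CCR8- replicate 3, and the other CCR8- libraries were between 453.5 and 481.7 (gap over range 0.883).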

How the results depend on the processing

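The number of members called was 0 under every alternative except DESeq2 with the replicate block, where it was 1 (Bcl2l1, log2 fold change 1.5; Ccr8 was also called, at 2.37, adjusted p = 2.14e-28). Genes called over the table numbered 0 in the main fit, 1 with the replicate block, 2 without the intensity trend, 26 with DESeq2 and 124 with DESeq2 with the replicate block, and 0 under the others. The numbers were not taken to pair the libraries: same-numbered libraries had correlated deviations of 0.0682, 0.138, 0.108 and 0.217, other numbers −0.171 to 0.101, and 7 of 8 libraries correlated best with their own number, a hint from the data. Members with separate groups numbered 1, against 0 with the same total per library and 0 with quantile normalization. They numbered between 1 and 3 when libraries were left out. There were 3 without replicate 1, when Bid and Mcl1 joined Bcl2l1, and 2 without CCR8- replicate 1 and CCR8+ replicate 3. Directions turned for Bcl2l11 without CCR8+ replicate 3 (0.20), without replicate 3 (0.18) and without CCR8- replicate 1 and CCR8+ replicate 3 (0.04), for Bax without replicate 1 (0.10) and for Mcl1 without replicate 4 (0.02), within ranges of −0.87 to 0.20, −0.40 to 0.10 and −0.30 to 0.02. These come from fewer libraries, and no other cause was tested. Bcl2l1 kept its direction, between 0.98 and 1.80 with libraries left out and between 1.37 and 1.52 otherwise. Bid was between −1.64 and −0.70, Pmaip1 between 0.34 and 1.11, and the pro-survival minus pro-death median between −0.06 and 0.33. The difference in the log2 ratio of Bcl2 to Bcl2l11 turned to −0.29 without CCR8+ replicate 3, −0.21 without replicate 3 and −0.12 without CCR8- replicate 1 and CCR8+ replicate 3. The lowest count of a member in a library was 37 reads (Bak1).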
